A study of Mus musculus with 10 samples.

Results

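The genes examined were 8 enzymes and cofactors of DNA methylation and demethylation, Dnmt1, Uhrf1, Dnmt3a, Dnmt3b, Tet1, Tet2, Tet3 and Tdg, taken by gene symbol from the 57825 genes of the table. Each symbol was listed 1 time. All 8 averaged 0.5 FPKM or more over the samples, the filter that left 15710 genes to test. FPKM are fragments per kilobase of gene length, scaled to the fragments of the sample, so levels of different genes are compared here per length.

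CD8+ T cells were isolated by negative selection from the spleens of female Balb/c mice of 7 to 8 weeks. They were activated for 12 h on plates coated with anti-CD3, with anti-CD28 and IL-2, and co-cultured for 48 h with 4T1 cells, a Balb/c mammary carcinoma line, before RNA was taken from purified CD8+ T cells (labelled day 3). The control group (CD8+4T1, n = 5) received no acetate and the treated group (CD8+4T1+NaAc, n = 5) received 5 mM sodium acetate for 24 h before the co-culture. No genetic change is given for the mice, and nothing in the labels says that the 5 samples of a group came from separate mice or cultures, so p-values measure the spread between these samples, which may be technical.

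Cytosine methylation at CpG sites is copied after each round of DNA replication by DNMT1, which UHRF1 brings to hemimethylated DNA. DNMT3A and DNMT3B place methyl groups on unmethylated sites, and in CD8+ T cells DNMT3A is known for methylating genes of the naive and memory states during effector differentiation. The TET dioxygenases use oxygen and 2-oxoglutarate to oxidize 5-methylcytosine, and TDG removes the more oxidized forms so that base excision repair can restore a plain cytosine. The question asked of the data was whether the transcripts of this machinery differed between acetate-treated and untreated CD8+ T cells.

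The depth that the FPKM values refer to was 16306447 to 17443395 fragments per control sample and 16503701 to 18853726 per NaAc sample. CD8 T cell markers were abundant, summing to 840 to 943 FPKM in control samples and 741 to 914 in NaAc samples over 12 genes. Of these 12 markers, 1 was called higher and 6 lower in NaAc samples, with Zap70 the marker called higher (0.27, adjusted p = 0.0242) and Cd3d, Cd3e, Cd3g and Lck among the 6. The Zap70 call was lost without control replicate 2 or NaAc replicate 3, 4 or 5 (adjusted p up to 0.0610), and Cd8a did not pass (-0.04). After rescaling all samples to the same total FPKM the counts were 5 higher and 4 lower, and without NaAc replicate 1 (below) 3 higher and 6 lower, Trac and Cd8b1 being added to those called higher. Markers of 4T1 and other epithelial cells summed to 75.4 to 90.5 FPKM in control and 139 to 246 in NaAc samples, and 5 of the 9 that were tested, of 15 listed, were called higher (6 without NaAc replicate 1), led by Krt8 (log2 fold change 3.33, adjusted p = 8.1e-05) and Lcn2 (3.28, adjusted p = 5.33e-05). Most of the control sum came from Cd24a, Sfn and Perp (control means of 43.6, 12.9 and 12.8 FPKM), whose log2 fold changes were 0.20, -0.03 and 0.11. Krt8 and Lcn2 had means of 3.42 and 3.99 FPKM in control and 34.2 and 40.2 FPKM in NaAc samples. Cdh1 and Elf3 were below the filter and had means of 0.0316 and 0.103 FPKM in control against 0.606 and 0.790 FPKM in NaAc samples, with groups that did not overlap. None of these 15 markers was at 0 in all samples. Of the markers tested in the other lists, 2 of 3 myeloid, 1 of 3 CD4 T cell, 2 of 4 NK cell and 0 of 2 B cell markers were called higher, with none lower, beside 17.6% of all genes tested called higher and 19.0% lower. Over the 10 fits with 1 sample left out, 1 to 2 myeloid, 1 CD4 T cell, 2 to 3 NK cell and 0 to 1 B cell markers were called higher, and 0 to 1 myeloid and 0 to 1 CD4 T cell markers lower. Leaving out NaAc replicate 1 or control replicate 2 gave 3 NK cell calls. Leaving out NaAc replicate 1 also gave the B cell call (Cd79b) and the lower CD4 T cell call (Zbtb7b). With the same total FPKM 2 myeloid, 1 CD4 T cell, 4 NK cell and 1 B cell markers were called higher, and 0 lower. Those counts stand beside 31.2% of all genes called higher and 8.8% lower in that fit. The 2 NK cell markers called with the deposited FPKM were Eomes and Gzma, which the paper lists among CD8+ T cell effector, memory and exhaustion genes. Ncr1 and Klrb1c were below the filter. The myeloid markers S100a9 and Siglech were at 0 in all samples. The part of these other cells in the results below was not tested, and in bulk RNA fewer cells of a type and less RNA per cell cannot be told apart.

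NaAc replicate 1 stood apart from its group. It had 20233 genes above 0 FPKM against 24681 to 25088 in NaAc replicates 2 to 5, and the enzyme genes that rest on it, and the list counts that change with it, are given with and without it. Control replicate 1 had 22291 such genes against 23786 to 24054 in the other control samples, and no enzyme gene changed its call without it.

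The order of the 8 genes was the same in all 10 samples for every pair of neighbours. Uhrf1 stood highest with a mean over all samples of 80.9 FPKM, followed by Dnmt1 (43.0 FPKM), Dnmt3a (14.3 FPKM), Tet3 (9.82 FPKM), Tdg (5.49 FPKM), Tet2 (4.77 FPKM), Dnmt3b (2.24 FPKM) and Tet1 (0.728 FPKM). Uhrf1 ranked 550 among all genes of the table by its mean and Tet1 ranked 14363. The ranges over samples overlapped for 2 pairs of neighbours, Dnmt3a with Tet3 and Tdg with Tet2, and were separate for the other 5 pairs.

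None of the 8 genes was called higher or lower in NaAc samples with limma at an adjusted p under 0.05 (0 of 8; 0 at an unadjusted p under 0.05, and 0 with voom on fragment numbers). Over all genes tested, 36.5% were called in either direction, 17.6% higher and 19.0% lower, and 45.9% had an unadjusted p under 0.05. The groups overlapped for all 8 genes, whereas they did not for 26.4% of all genes tested. The median log2 fold change of the 8 was -0.05, beside -0.02 over all genes tested, and the median absolute log2 fold change was 0.07 beside 0.26. Without NaAc replicate 1, 2 of the 8 genes, Dnmt3a and Tet3, were called lower, beside 22.6% of all genes called lower, 21.7% called higher and 44.3% called in either direction in that fit. Neither call held when the samples were also rescaled to the same total FPKM, where Uhrf1 and Dnmt3b (2 of 8) were called higher instead, beside 35.4% of all genes called higher.

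**Figure D1:**
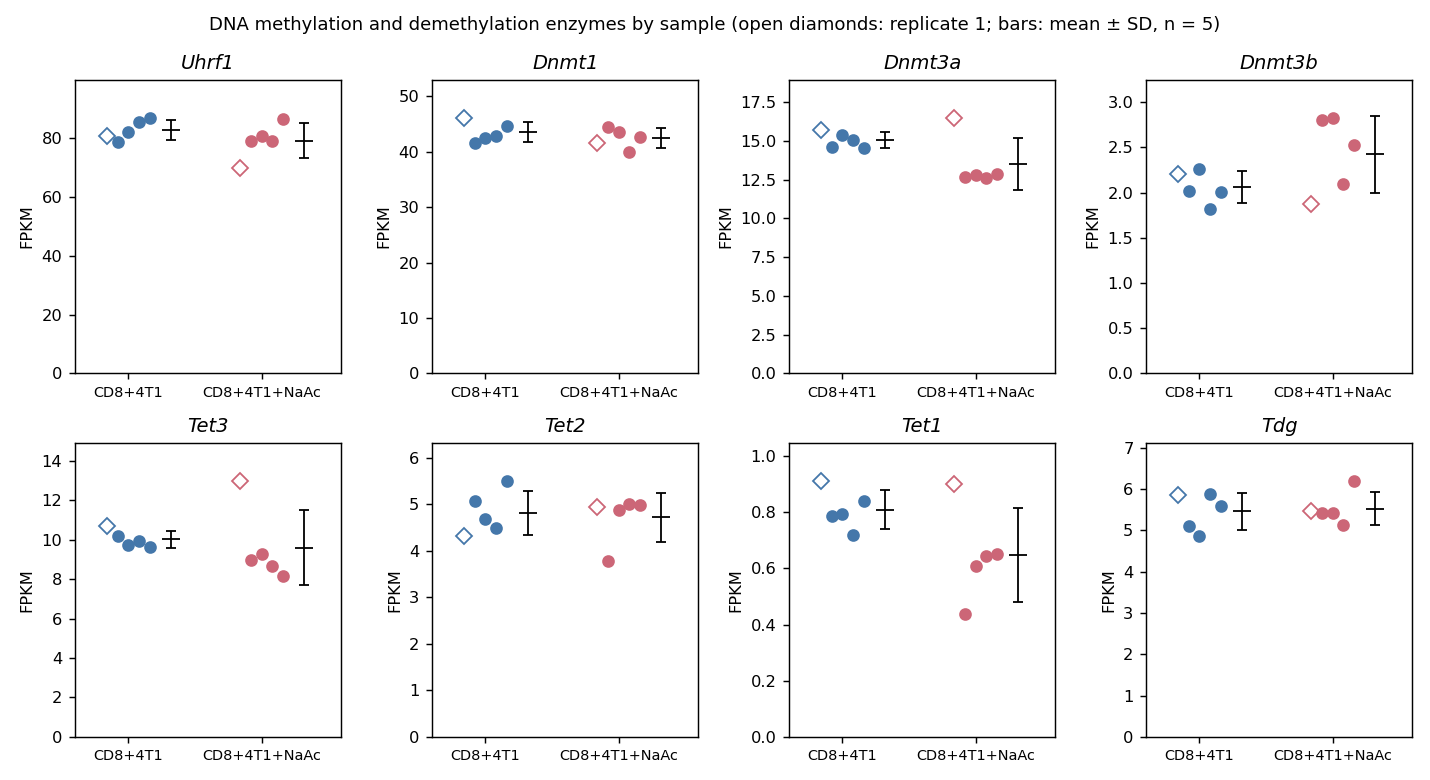
FPKM of each gene (y axis, from 0, a separate scale for each gene) in the 5 CD8+4T1 and the 5 CD8+4T1+NaAc samples (x axis); each point is a sample, open diamonds are replicate 1 and the bars give the mean ± SD. For Dnmt3a, Tet3 and Tet1 the open diamond of the NaAc group lies above the other 4 NaAc samples, which lie below all 5 control samples.

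The maintenance pair comes first. The promoters of Dnmt1 and Uhrf1 are shown because they are the members' promoters, among 13 annotated starts, in which an E2F-type motif was found, and because E2F factors are known to drive genes of DNA replication. The sequences are from RefSeq on GRCm38.p6, 250 bases before to 50 after a transcription start, 5′ to 3′ on the strand of the gene. The Dnmt1 window is chr9:20952574-20952873 on the minus strand and the Uhrf1 window is chr17:56304063-56304362 on the plus strand. Capitals mark the motifs searched, TTTCGCGC (or GCGCGAAA on the other strand) and TTTGGCGC (or GCGCCAAA on the other strand).
Dnmt1, start 3: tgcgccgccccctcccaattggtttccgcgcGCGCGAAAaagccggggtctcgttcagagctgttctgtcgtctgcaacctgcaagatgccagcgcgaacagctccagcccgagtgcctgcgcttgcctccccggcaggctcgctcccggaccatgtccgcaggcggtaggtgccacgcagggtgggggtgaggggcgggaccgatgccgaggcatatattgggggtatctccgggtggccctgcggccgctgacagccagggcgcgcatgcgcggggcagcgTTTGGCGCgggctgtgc
Uhrf1, start 2: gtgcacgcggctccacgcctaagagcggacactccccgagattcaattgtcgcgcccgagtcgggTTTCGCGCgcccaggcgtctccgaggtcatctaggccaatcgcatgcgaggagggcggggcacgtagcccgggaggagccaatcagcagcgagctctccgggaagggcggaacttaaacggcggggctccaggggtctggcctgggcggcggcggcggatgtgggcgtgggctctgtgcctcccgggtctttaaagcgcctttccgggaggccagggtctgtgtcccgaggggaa

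TTTCGCGC was present on either strand in 0.323% of 32851 promoter windows of this length, TTTGGCGC in 0.514%, and at least 1 of the 2 in 0.813%. Both windows shown hold 33 CpG sites, more than 91.4% of all windows, whose median is 7. The median over the 13 windows of the 8 genes was 26 CpG sites, and the most CpG-dense start of each gene held from 17 sites (Tet1) to 57 (Tet2). Such a match describes the letters of the window and is not a measured binding site, and the table does not say which start was used.

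Dnmt1 (ENSMUSG00000004099, listed on chromosome 9, 20818505 to 20871184, minus strand), the maintenance methyltransferase, had 46.0, 41.5, 42.5, 42.8 and 44.6 FPKM in control replicates 1 to 5. The NaAc replicates 1 to 5 had 41.6, 44.4, 43.6, 40.0 and 42.7 FPKM. The groups overlapped, with the highest sample in the control group and the lowest in the NaAc group. The means were 43.5 ± 1.79 and 42.5 ± 1.74 FPKM (SD, n = 5 each). The log2 fold change on the log2(FPKM + 0.1) scale was -0.03 (SE 0.05, 95% interval -0.14 to 0.07, limma adjusted p = 0.590), and the exact two-sided permutation test gave p = 0.381, where the smallest p that 5 samples against 5 allow is 0.00794. With the deposited FPKM the interval is narrow, and its ends lie within 0.14 of 0 on the log2 scale. That bound depends on the scaling. With the same total FPKM the log2 fold change was 0.14 (95% interval 0.025 to 0.259, limma adjusted p = 0.0535).

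Uhrf1 (ENSMUSG00000001228, listed on chromosome 17, 56610321 to 56630486, plus strand), whose protein recognizes hemimethylated CpG sites and recruits DNMT1, had 80.6, 78.8, 82.2, 85.3 and 86.8 FPKM in control replicates 1 to 5. Values in NaAc replicates 1 to 5 were 69.8, 79.1, 80.8, 79.1 and 86.4 FPKM. NaAc replicate 1 was the lowest of the 10 samples, and the other 4 NaAc samples lay within the range of the control group. The means were 82.7 ± 3.30 and 79.1 ± 5.95 FPKM (SD, n = 5 each), with a log2 fold change of -0.07 (SE 0.06, 95% interval -0.20 to 0.06, limma adjusted p = 0.400; exact permutation p = 0.254). Without NaAc replicate 1 the log2 fold change was -0.02 (limma adjusted p = 0.689), and with the same total FPKM as well it turned to 0.15 and was called higher (limma adjusted p = 0.0226, in a range of 0.0226 to 0.758 over the 26 alternatives tried).

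Ratios of FPKM + 0.1 between 2 genes of a sample are nearly free of how that sample was scaled where both genes are well above 0.1, and less so for Tet1. The Dnmt1 to Uhrf1 ratio lay between 0.503 and 0.572 in control samples (median 0.518) and between 0.495 and 0.597 in NaAc samples (median 0.540). The groups overlapped over most of this range, and the log2 difference was 0.03 (exact permutation p = 0.571, adjusted p = 0.667 over the 7 ratios compared).

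Dnmt3a (ENSMUSG00000020661, listed on chromosome 12, 3856007 to 3964443, plus strand), the main de novo methyltransferase of T cells, had 15.7, 14.6, 15.4, 15.0 and 14.6 FPKM in control replicates 1 to 5. In NaAc replicates 1 to 5 it had 16.5, 12.7, 12.8, 12.6 and 12.9 FPKM. NaAc replicate 1 was the highest of the 10 samples, while NaAc replicates 2 to 5 lay within 12.6 to 12.9 FPKM and below every control sample. The means were 15.1 ± 0.502 and 13.5 ± 1.67 FPKM (SD, n = 5 each), and the log2 fold change was -0.16 (SE 0.07, 95% interval -0.33 to 0.00, unadjusted p = 0.0508, limma adjusted p = 0.110; exact permutation p = 0.0476). Without NaAc replicate 1 Dnmt3a fell by 15.2% (log2 fold change -0.24, SE 0.04, 95% interval -0.32 to -0.15, limma adjusted p = 0.000735; exact permutation p = 0.00794, the smallest possible). The fold depended on the scaling: without NaAc replicate 1 it was -0.07 with the same total FPKM (limma adjusted p = 0.281) and -0.14 scaled to the CD8 T cell markers (limma adjusted p = 0.0900), and with all samples -0.03 scaled to those markers and -0.07 with voom. The CD8 T cell markers themselves had a median log2 fold change of -0.15, so scaling to them moves the folds of other genes upward. The adjusted p of Dnmt3a ranged from 0.000735 to 0.928 over the 26 alternatives tried, of which 4 gave a call.

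Dnmt3b (ENSMUSG00000027478, listed on chromosome 2, 153491370 to 153529650, plus strand), the second de novo methyltransferase, had 2.20, 2.02, 2.26, 1.82 and 2.01 FPKM in control replicates 1 to 5, from 153 to 188 fragments. In NaAc replicates 1 to 5 it had 1.88, 2.80, 2.82, 2.10 and 2.52 FPKM, from 164 to 270 fragments. NaAc replicates 2, 3 and 5 lay above every control sample, and NaAc replicates 1 and 4 lay among the controls. The means were 2.06 ± 0.175 and 2.43 ± 0.424 FPKM (SD, n = 5 each), with a log2 fold change of 0.21 (SE 0.13, 95% interval -0.07 to 0.49, limma adjusted p = 0.223; exact permutation p = 0.143). Without NaAc replicate 1 the log2 fold change was 0.30 (95% interval 0.05 to 0.54, limma adjusted p = 0.0539). Dnmt3b was called higher when FPKM were rescaled to the same total in every sample (0.38, limma adjusted p = 0.0332), and its adjusted p ranged from 0.00807 to 0.413 over the 25 alternatives tried, of which 5 gave a call.

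The Dnmt3a to Dnmt3b ratio was 6.87, 6.92, 6.56, 7.89 and 6.97 in control replicates 1 to 5. In NaAc replicates 1 to 5 it was 8.38, 4.40, 4.42, 5.80 and 4.94. NaAc replicate 1 had the highest ratio of all samples and the other 4 NaAc samples the lowest. The log2 difference between the groups was -0.38 (exact permutation p = 0.0952, adjusted p = 0.319 over 7 ratios) and became -0.53 without NaAc replicate 1 (exact permutation p = 0.00794, adjusted p = 0.0278). The Dnmt1 to Dnmt3a ratio had medians of 2.84 in control and 3.30 in NaAc samples, with NaAc replicate 1 the lowest of all samples at 2.52. Its log2 difference was 0.13 (exact permutation p = 0.175, adjusted p = 0.319), and 0.21 without NaAc replicate 1 (exact permutation p = 0.00794, adjusted p = 0.0278). For both ratios 0.00794 is the smallest p that 5 samples against 4 allow. Any ratio whose groups do not overlap reaches it, so these p-values show no more than that separation. Both ratios contain Dnmt3a. Without NaAc replicate 1 the groups did not overlap for 38.0% of all genes tested.

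**Figure D2:**
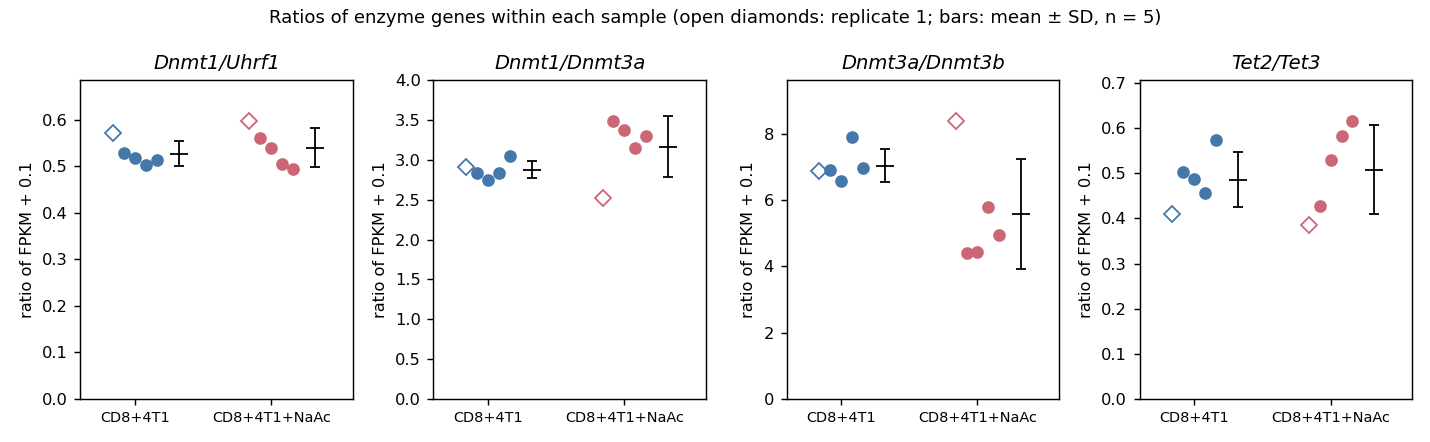
Ratios of FPKM + 0.1 between pairs of genes (y axis, from 0) in each of the 5 CD8+4T1 and 5 CD8+4T1+NaAc samples (x axis); open diamonds are replicate 1 and the bars give the mean ± SD. The Dnmt3a to Dnmt3b ratio is between 4.40 and 5.80 in NaAc replicates 2 to 5, below the control range of 6.56 to 7.89, and is 8.38 in NaAc replicate 1.

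Among the dioxygenases, Tet3 (ENSMUSG00000034832, listed on chromosome 6, 83339355 to 83436066, minus strand) was the most abundant. It had 10.7, 10.2, 9.71, 9.92 and 9.66 FPKM in control replicates 1 to 5, and 12.97, 8.96, 9.29, 8.67 and 8.16 FPKM in NaAc replicates 1 to 5. NaAc replicate 1 was again the highest sample and NaAc replicates 2 to 5 the lowest 4. The means were 10.04 ± 0.432 and 9.61 ± 1.92 FPKM (SD, n = 5 each), with a log2 fold change of -0.08 (SE 0.11, 95% interval -0.32 to 0.16, limma adjusted p = 0.601; exact permutation p = 0.556). Without NaAc replicate 1 Tet3 fell by 12.5% (log2 fold change -0.19, SE 0.05, 95% interval -0.31 to -0.08, limma adjusted p = 0.0135). Without that sample it was -0.03 with the same total FPKM (limma adjusted p = 0.780) and -0.09 scaled to the CD8 T cell markers (limma adjusted p = 0.400). Its adjusted p ranged from 0.0135 to 0.945 over the 26 alternatives tried, of which 3 gave a call.

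Tet2 (ENSMUSG00000040943, listed on chromosome 3, 133169440 to 133250900, minus strand), which in mouse CD8+ T cells is known for restraining memory differentiation, had 4.33, 5.06, 4.69, 4.48 and 5.50 FPKM in control replicates 1 to 5. In NaAc replicates 1 to 5 it had 4.95, 3.78, 4.88, 5.01 and 4.98 FPKM. The lowest sample was NaAc replicate 2, and the other 4 NaAc samples, between 4.88 and 5.01 FPKM, lay inside the control range. The means were 4.81 ± 0.471 and 4.72 ± 0.529 FPKM (SD, n = 5 each), with a log2 fold change of -0.03 (SE 0.10, 95% interval -0.24 to 0.18, limma adjusted p = 0.834; exact permutation p = 0.802).

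Tet1 (ENSMUSG00000047146, listed on chromosome 10, 62640349 to 62744775, minus strand) was the lowest of the 8 genes, from 127 to 238 fragments per sample over 15457 bases of gene length. It had 0.910, 0.786, 0.793, 0.719 and 0.839 FPKM in control replicates 1 to 5, and 0.901, 0.436, 0.608, 0.643 and 0.651 FPKM in NaAc replicates 1 to 5. NaAc replicates 2 to 5 lay below every control sample and NaAc replicate 1 near the top of the control range. The means were 0.809 ± 0.0707 and 0.647 ± 0.166 FPKM (SD, n = 5 each), and the log2 fold change was -0.31 (SE 0.20, 95% interval -0.75 to 0.14, limma adjusted p = 0.261; exact permutation p = 0.0714). It was -0.15 with the same total FPKM (limma adjusted p = 0.613). Of the fits with 1 sample left out, the one without NaAc replicate 2 gave the smallest change (-0.195, limma adjusted p = 0.456). Without NaAc replicate 1 the log2 fold change was -0.42 (95% interval -0.83 to -0.01) and still missed the threshold (limma adjusted p = 0.0889). In that comparison the groups did not overlap for 3 of the 8 genes, Dnmt3a, Tet3 and Tet1, beside 38.0% of all genes tested.

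The Tet1 to Tet3 ratio had medians of 0.0911 in control and 0.0766 in NaAc samples, with overlapping ranges, and the log2 difference was -0.23 (exact permutation p = 0.0556, adjusted p = 0.319). It depended on the constant added to the FPKM, at -0.27 with 0.01 and -0.07 with 1. The Tet2 to Tet3 ratio had medians of 0.488 and 0.530 with a log2 difference of 0.05 (exact permutation p = 0.730). For Dnmt3a to Tet3 and Dnmt3a to Tet2 the log2 differences were -0.08 and -0.13 (exact permutation p = 0.183 and 0.262). With 1 sample left out they ran from -0.12 to -0.045 and from -0.19 to -0.082. The difference for Tet1 to Tet3 ran from -0.29 to -0.13 in those fits. None of the 7 ratios passed the test over all 10 samples.

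Tdg (ENSMUSG00000034674, listed on chromosome 10, 82465662 to 82486633, plus strand), the glycosylase that excises oxidized cytosines, had 5.85, 5.11, 4.86, 5.88 and 5.58 FPKM in control replicates 1 to 5. NaAc replicates 1 to 5 had 5.47, 5.42, 5.41, 5.14 and 6.19 FPKM. The groups overlapped over most of their range. The means were 5.46 ± 0.454 and 5.53 ± 0.391 FPKM (SD, n = 5 each), with a log2 fold change of 0.02 (SE 0.07, 95% interval -0.15 to 0.18, limma adjusted p = 0.866; exact permutation p = 0.794). Rescaled to the same total FPKM it was 0.19 (limma adjusted p = 0.0796), scaled to the CD8 T cell markers 0.15 and with voom 0.11.

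The value of Tdg is uncertain, because 5 processed pseudogenes carry its name or protein annotation and near-identical copies can share reads. They held 58.1% to 64.8% of the fragments of Tdg and the 5 together (median 60.3%). Nearly all of these lay in Tdg-ps2, an intronless copy of 1194 bases listed on chromosome 10, 41930109 to 41931302, which reached 38.8 ± 1.42 FPKM in control and 36.3 ± 2.20 FPKM in NaAc samples (SD, n = 5 each). Tdg-ps2 had a log2 fold change of -0.10 (SE 0.05, limma adjusted p = 0.175). Summed with the pseudogenes, Tdg had 76.3 ± 2.42 fragments per 1000000 of the sample in control and 73.6 ± 4.25 in NaAc samples (SD, n = 5 each), a log2 difference of -0.05 (exact permutation p = 0.270). Neither way of counting separated the groups. For Uhrf1 the pseudogene Gm5648 held at most 0.350% of the fragments of the pair.

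**Figure D3:**
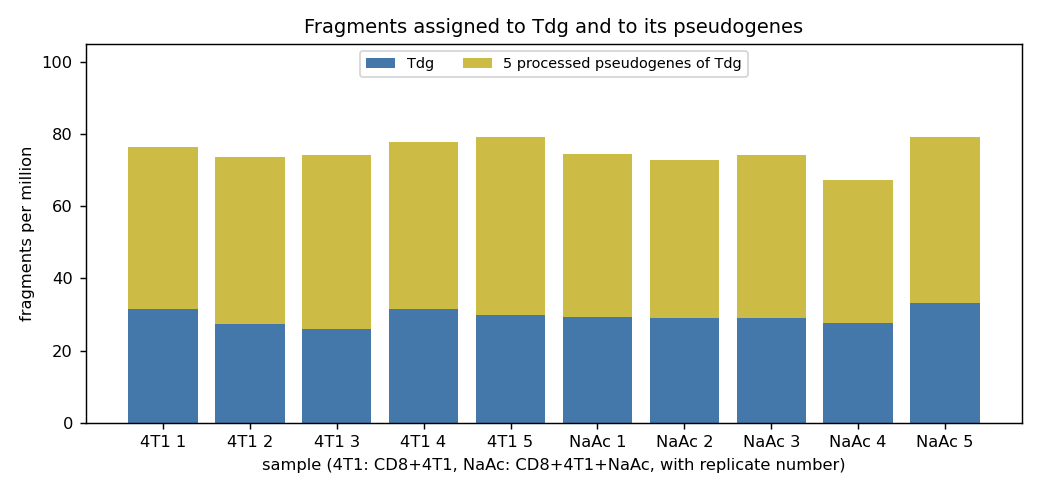
Fragments per 1000000 of the sample (y axis, from 0) assigned to Tdg (lower, blue) and to its 5 processed pseudogenes (upper, yellow) in each of the 10 samples (x axis). The summed bars run from 73.6 to 79.3 in the control and from 67.4 to 79.3 in the NaAc samples, and the pseudogenes make up more than 58% of each.

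The deposited FPKM did not sum to the same total: the median total was 328423 in control and 289459 in NaAc samples. The rows analysed here hold 95.5% to 97.9% of the fragments that the control FPKM were scaled to and 89.8% to 92.1% of those for NaAc samples, and the part of this gap in the differences was measured only through voom, which scales to the fragments of the rows tested, moves the median of all genes to 0.08, and turns the sign of Dnmt1, Uhrf1, Tet2 and Tet3, none of them called. Rescaling every sample to the same total moved the log2 fold change of the median gene tested from -0.02 to 0.16, and the share of calls that were higher from 48.1% to 78.0%. With that scaling 40.0% of the genes tested were called, 31.2% higher and 8.8% lower. Under that scaling Dnmt1, Uhrf1, Dnmt3a, Tet2 and Tet3 changed sign, none of them called. Relative to the median of all genes in the same fit, Dnmt3a was at -0.15 with the deposited values and -0.14 with the same total, Dnmt3b at 0.23 and 0.22, and Tet1 at -0.29 and -0.31. Such a rescaling shifts all genes of a sample together, so these relative values could not differ much.

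**Figure D4:**
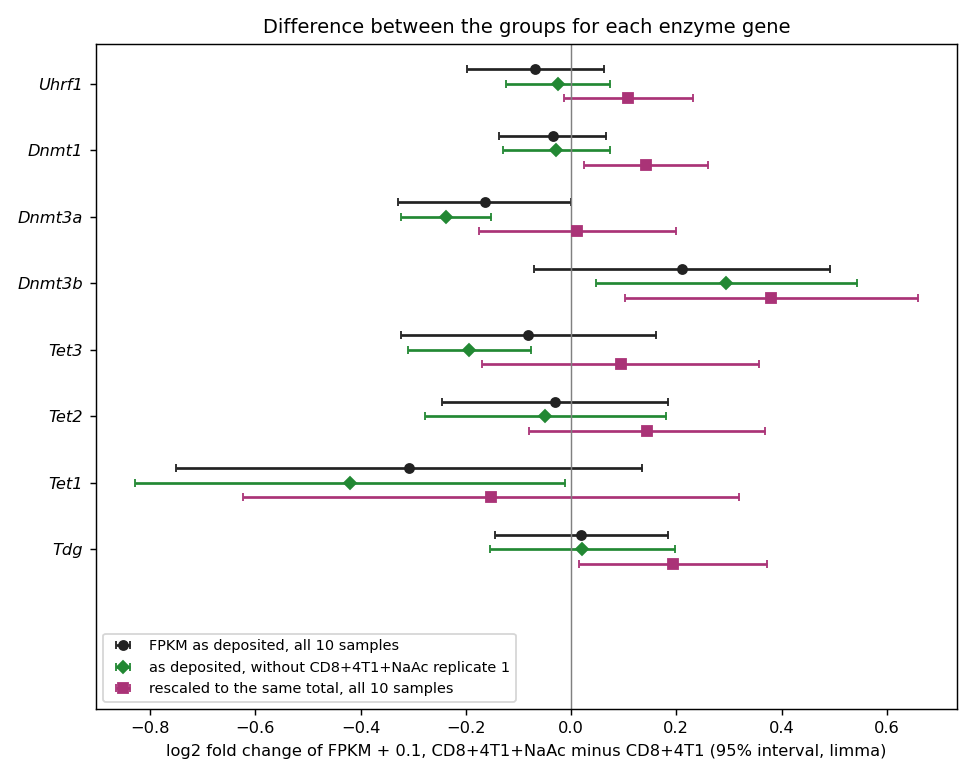
Log2 fold change of FPKM + 0.1 (x axis, NaAc minus control) with its 95% interval for each of the 8 genes (y axis), for the deposited FPKM in all 10 samples (black circles), without NaAc replicate 1 (green diamonds) and after rescaling to the same total (purple squares). With the deposited values in all 10 samples the 8 intervals include 0, and Tet1 has the widest.

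The genes that work with these enzymes were compared through lists. Counts with the deposited FPKM in all samples stand beside 17.6% of all genes called higher and 19.0% lower. Counts with the same total FPKM stand beside 31.2% higher and 8.8% lower, and those without NaAc replicate 1 beside 21.7% higher and 22.6% lower. Of 7 partners of maintenance methylation, 1 fell and 1 rose with the same total FPKM, with a median log2 fold change of 0.03. With 1 sample left out 1 to 4 fell and 0 to 1 rose, and without NaAc replicate 1, 4 fell and 0 rose. With the deposited FPKM in all samples 3 fell and 0 rose in NaAc samples, with a median of -0.15. These were Pclaf, a PCNA-associated factor that takes part in recruiting DNMT1 (50.2 ± 3.92 against 37.4 ± 2.77 FPKM, SD, n = 5 each; log2 fold change -0.42, limma adjusted p = 0.00083), Cdca7, the activator of the remodeller HELLS (-0.28, limma adjusted p = 0.0308), and Uhrf2, the paralog of Uhrf1 (-0.15, limma adjusted p = 0.0354). Cdca7 and Uhrf2 did not pass after rescaling to the same total (-0.10 and 0.03, limma adjusted p = 0.375 and 0.786). With 1 sample left out the adjusted p ran up to 0.0669 for Cdca7, above the threshold without control replicate 1, 4 or 5, and up to 0.0728 for Uhrf2, which passed only without control replicate 4, control replicate 5 or NaAc replicate 1 and did not pass with the replicate block (limma adjusted p = 0.0893). Pcna, Hells, Lig1 and Usp7 did not pass, with log2 fold changes of -0.30, 0.15, -0.05 and -0.04, but Hells passed with the same total FPKM (0.33, limma adjusted p = 0.00458) and without control replicate 1 (limma adjusted p = 0.0425), and Pcna with the replicate block (limma adjusted p = 0.0157), without NaAc replicate 1 (-0.19, limma adjusted p = 0.0492) and without NaAc replicate 5 (limma adjusted p = 0.0448).

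Of 7 partners of de novo methylation, 5 were tested and 1 rose, the H3K9 methyltransferase Ehmt2 (23.6 ± 0.402 against 28.2 ± 1.80 FPKM, SD, n = 5 each; log2 fold change 0.26, limma adjusted p = 0.00203). Dnmt3l, the catalytically inactive relative of the de novo enzymes, had a mean of 0.0278 FPKM in control and 0.0107 in NaAc samples and was not tested. Zfp57, which guides methylation at imprinted genes, was also below the filter, at means of 0.0637 and 0.456 FPKM with groups that did not overlap. The median log2 fold change of the 5 was 0.03. With the same total FPKM 3 rose and 0 fell, and without NaAc replicate 1, 2 rose and 1 fell, the added calls being Trim28 (0.25, limma adjusted p = 0.000878) and Nsd1 (-0.26, limma adjusted p = 0.00548). Setd2 was called lower without NaAc replicate 5 (limma adjusted p = 0.0373).

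Of 17 genes of base excision repair and TET partners, 15 were tested, 1 rose and 4 fell, with a median log2 fold change of 0.02, and the 5 calls in 15 stand beside 36.5% of all genes. With the same total FPKM 5 rose and 3 fell, and without NaAc replicate 1, 3 rose and 4 fell. Without that sample Gadd45a was called lower (-0.38, limma adjusted p = 0.00813) and Xrcc1 was not (-0.16, limma adjusted p = 0.0587). With the deposited FPKM in all samples Gadd45g and Gadd45b fell, stress-response genes linked to demethylation (-0.81 and -0.44, limma adjusted p = 0.00759 and 6.64e-05). The abasic-site endonuclease Apex1 (-0.52, limma adjusted p = 0.0046) and the repair scaffold Xrcc1 (-0.17, limma adjusted p = 0.0416) also fell, Xrcc1 being named after its value was seen. Xrcc1 was at 0.00 after rescaling to the same total, and with 1 sample left out it passed in 2 of 10 fits, without control replicate 1 or NaAc replicate 2, and it did not pass with the replicate block (limma adjusted p = 0.0670). The glycosylase Neil1 rose (0.31, limma adjusted p = 0.011).

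The reader list holds proteins that bind methylated DNA and recruit repressor complexes, and their relative MBD3, a subunit of such a complex that does not itself prefer methylated CpG. Of 6 methyl-CpG readers and relatives 4 fell and 0 rose, with a median log2 fold change of -0.35 beside -0.02 over all genes tested. Mbd2 fell from 49.1 ± 3.33 to 32.4 ± 5.63 FPKM (SD, n = 5 each; log2 fold change -0.61, SE 0.11, limma adjusted p = 0.00139). Zbtb33, Mbd3 and Mbd1 had log2 fold changes of -0.46, -0.41 and -0.28 (limma adjusted p = 0.000574, 0.00369 and 0.00278). In each of these 4 every NaAc sample lay below every control sample, where 26.4% of all genes tested had groups that did not overlap in either direction. After rescaling to the same total 2 of the 4, Mbd2 and Zbtb33, were still called lower (-0.43 and -0.29, limma adjusted p = 0.0138 and 0.015). The median of the 6 was then -0.17, beside 0.16 over all genes. Scaled to the CD8 T cell markers it was -0.21, beside 0.11. That scaling rests on 12 markers of which 6 were themselves called lower and 1 higher with the deposited FPKM.

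Of 9 genes of methyl donor and 2-oxoglutarate metabolism, 0 passed the test with the deposited FPKM (median log2 fold change -0.02). With the same total FPKM 3 rose, beside 31.2% of all genes called higher in that fit. Among them was Mat2a, which makes the methyl donor (0.29, limma adjusted p = 0.00202). Mat2a also passed with the deposited FPKM without control replicate 2 (limma adjusted p = 0.0480). Among 17 S phase genes 3 rose and 2 fell, with a median of 0.04, whereas 9 rose and 0 fell with the same total FPKM, and 5 rose and 1 fell without NaAc replicate 1. Those that rose were Cdt1, a replication licensing factor (0.54, limma adjusted p = 0.000336), Ccne1 (0.46, limma adjusted p = 0.00146) and E2f1 (0.39, limma adjusted p = 0.000905). The 2 that fell were Slbp (-0.24) and, named after its value was seen, Cdc6 (-0.16), and they were at -0.07 and 0.02 after rescaling to the same total, neither called. Cdc6 passed in 2 of 10 fits with 1 sample left out, without control replicate 1 or NaAc replicate 2, and not with the replicate block (limma adjusted p = 0.0508). Among 10 mitosis genes 2 rose, Cenpf and Mki67 (0.33 and 0.30, limma adjusted p = 0.00621 and 0.00293), and 0 fell, against 6 and 0 with the same total FPKM and 4 and 1 without NaAc replicate 1. Of 12 germline genes whose promoters are known to be methylated in somatic cells, 2 passed the filter and 1 rose, the synaptonemal complex gene Sycp1 (1.49 ± 0.109 against 2.03 ± 0.353 FPKM, SD, n = 5 each; log2 fold change 0.41, limma adjusted p = 0.0248), and Mael, Asz1 and Tdrd1 were at 0 in every sample. Sycp1 did not pass without control replicate 3, control replicate 4 or NaAc replicate 3, where the adjusted p ran up to 0.0650, nor with the replicate block (limma adjusted p = 0.0550). The other tested gene, Brdt, passed with the same total FPKM (0.75, limma adjusted p = 0.0460) and without NaAc replicate 2 (limma adjusted p = 0.0196), so that 2 rose in those fits.

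**Figure D5:**
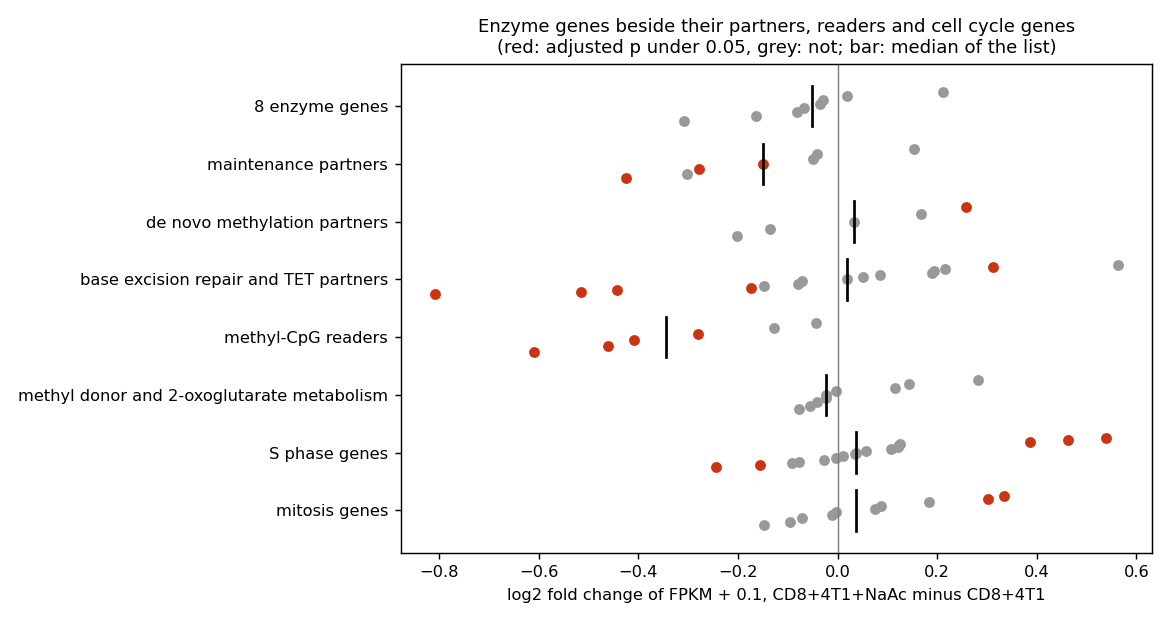
Log2 fold change of FPKM + 0.1 (x axis, NaAc minus control) for each tested gene (points) of the 8 enzyme genes and of 7 lists (y axis); red points passed an adjusted p under 0.05, grey points did not, and the black bar is the median of the list. All 8 enzyme genes are grey, while 4 of 6 methyl-CpG readers are red and below 0.

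Among 7048 protein-coding genes of at least 5 FPKM, the genes most like each enzyme gene over the 10 samples were taken by the smallest root-mean-square difference of centred log2 values. For Dnmt3a these were Taf1d, Ggps1 and Upf3b, at 0.0310 to 0.0404, where the own spread of Dnmt3a was 0.136. For Tet3 they were Dlat, Arf6 and Ppp1r9b (0.0368 to 0.0516), for Dnmt1 Kdm2b, Caprin1 and Idh3a (0.0245 to 0.0402), and for Uhrf1 Spag7, Mta2 and Tmbim6 (0.0264 to 0.0358). The nearest genes were farther for Dnmt3b (Slc25a11, 4930579G24Rik and Brca1, 0.0987 to 0.107) and Tet1 (Rbm27, Ino80d and Atxn1, 0.104 to 0.108). For Tet2 they were Cd28, Luc7l2 and Fnip1 (0.0718 to 0.0747), and for Tdg Gtf2b, Pkmyt1 and Parp2 (0.0599 to 0.0626).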

How the data were processed

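The authors deposited FPKM per gene and sample together with each gene's length, an other, unnormalized column; per the labels and the study's methods, NEBNext libraries were read on a NovaSeq and processed with fastp, HISAT2 2.0.5, StringTie 1.3.3b and featureCounts 1.5.0-p3. The genome build and strand setting are not given in the sources used here; positions are those of the table, which match GRCm38 for 1467 of 52073 shared genes and for 0 of the 8 members. FPKM times length gave whole fragments for 100% of values in every sample (within 0.1). Log2(FPKM + 0.1) of all genes averaging 0.5 FPKM or more was fitted by limma 3.58.1 under R 4.3.3, with variance trend, robust moderation and Benjamini-Hochberg adjustment over all genes tested; calls were made under 0.05. This took the place of a count model because the deposited values are FPKM. Fragment numbers recovered from them were fitted with voom as an alternative. Folds understate changes of low genes. Single values and ratios were compared by two-sided exact permutation of the group labels. The fit was tested on simulated data. The members and lists were chosen with earlier results of these data known, and 1 gene of the methyl-CpG reader list is not reported here. Called genes of each list were named up to the 4 with the largest change, and 3 most similar genes for each member. Alternatives changed the pseudocount, filter, scaling, weights, samples and replicate block.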

Additional observations from a re-analysis of the deposited data

Results flagged for a closer look

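A sample was marked where it lay apart at the top or bottom of its group by more than 0.71 of the group's whole range, the limit for 5 samples. Of 38 groups of values checked 6 had such a sample, and chance marks about 1 in 20, or 1.9 of 38. NaAc replicate 1 held 3 of the 6, with shares of the range of 0.932 for Dnmt3a and 0.719 for Tet3, where it was the highest sample, and 0.916 for the number of genes above 0, where it was the lowest. Control replicate 1 was marked for the number of genes above 0 (0.848). NaAc replicate 2 was marked for Tet2, where it was lowest (0.907), and for the number of fragments, where it was highest (0.747). The cause was not tested for any of them.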

How the results depend on the processing

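Of the values recomputed under the alternatives, 326 kept their direction and their side of the threshold (counts within 1.5 times), 29 changed sign, 14 newly passed the threshold and 7 counts moved by more than 1.5 times. The number of enzyme genes called was 0 to 2 when 1 sample was left out, the 2 without NaAc replicate 1. It was 1 with the same total FPKM, 2 with array weights and 2 without replicate 1 of both groups. Those fits called 40.0%, 48.3% and 44.4% of all genes. The replicate block without replicate 1 of both groups called 1 enzyme gene higher and 2 lower, beside 40.7% of all genes called. Without NaAc replicate 1, the same total FPKM called 2 enzyme genes higher and 0 lower, beside 47.4% of all genes. Scaling to the CD8 T cell markers without that sample called 1 higher and 0 lower, beside 40.4%. Leaving out 1 sample gave log2 fold changes of -0.24 to -0.14 for Dnmt3a, -0.19 to -0.028 for Tet3, -0.066 to 0.046 for Tet2 and -0.022 to 0.047 for Tdg, and ratio differences of -0.53 to -0.30 for Dnmt3a to Dnmt3b, 0.093 to 0.21 for Dnmt1 to Dnmt3a, -0.024 to 0.14 for Tet2 to Tet3, and -0.0037 to 0.064 for Dnmt1 to Uhrf1.

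With the same total FPKM the log2 fold changes were 0.14 for Dnmt1, 0.11 for Uhrf1, 0.012 for Dnmt3a, 0.38 for Dnmt3b, 0.14 for Tet2, 0.095 for Tet3, 0.19 for Tdg and -0.15 for Tet1. Scaled to the CD8 T cell markers they were 0.10 for Dnmt1, 0.067 for Uhrf1, 0.10 for Tet2 and 0.053 for Tet3. With voom they were 0.059 for Dnmt1, 0.025 for Uhrf1, 0.059 for Tet2 and 0.011 for Tet3. Alternatives chosen after seeing the data left out NaAc replicate 1 as well: with the same total, Dnmt1 was at 0.14, Uhrf1 at 0.15 (adjusted p = 0.0226 in a range of 0.0226 to 0.758), Dnmt3b at 0.46, Tet2 at 0.12, Dnmt3a at -0.069 and Tet3 at -0.025, and scaled to the CD8 T cell markers, Dnmt1 was at 0.072, Uhrf1 at 0.076, Dnmt3b at 0.39, Tet2 at 0.049, Dnmt3a at -0.14 and Tet3 at -0.094, with neither Dnmt3a nor Tet3 called. Dnmt3b was called higher in both of these fits (limma adjusted p = 0.00807 and 0.0320), beside 47.4% and 40.4% of all genes called. The median over all genes was 0.16 with the same total, 0.11 when scaled to the CD8 T cell markers and 0.08 with voom, and the cause of the difference in totals was not tested. Array weights gave -0.22 for Dnmt3a and 0.29 for Dnmt3b, and leaving out replicate 1 of both groups -0.22 for Dnmt3a and -0.17 for Tet3. Tdg summed with its pseudogenes was at -0.052, also chosen after seeing the data. Array weights called 21 genes of the 5 partner, reader and donor lists against 13, while the share of all genes called went from 36.5% to 48.3%. With 1 sample left out 11 to 18 were called, the 18 without NaAc replicate 1, where 44.3% of all genes were called. Methyl-CpG readers called lower numbered 2 with the same total, 2 when scaled to the CD8 T cell markers, and 4 with any 1 sample left out.

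Same-numbered samples shared little of their deviation from the group means: the correlation was -0.0283 to 0.0694, and 4 of 10 samples correlated best with their own number. These values cannot tell whether same-numbered samples came from the same mouse or culture, and the labels do not say. With the replicate block 0 enzyme genes were called, beside 34.4% of all genes, and Dnmt3a was at -0.16 (limma adjusted p = 0.0844). The replicate block without replicate 1 of both groups, chosen after seeing the data, gave -0.22 for Dnmt3a, 0.32 for Dnmt3b and -0.17 for Tet3. All of these were called (limma adjusted p = 0.00959, 0.0432 and 0.0452), beside 40.7% of all genes in that fit. Tet1 and Dnmt3b rest on 127 to 270 fragments per sample.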
